A study of Mus musculus with 22 samples.

Results

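Late superficial cells of the control mouse esophagus are described here as the far end of keratinocyte differentiation seen in single cell RNA sequencing of peeled epithelium. They were chosen by their unique molecular identifiers (UMIs, counts of captured transcripts): at least 10 UMIs on 6 keratinization genes, under 10% of these on the basal genes Krt5, Krt14 and Krt15 as against Krt4, Krt13 and Krtdap, and at least 0.5% of all UMIs of the cell on Sprr3, Crct1, Cnfn and Slpi together. By this rule 145 of 1500 control cells (9.67%) were late superficial cells, 28.8% of the 504 superficial cells that met the keratin part of it. The other 359 superficial cells were the comparison. The series holds 4500 cells of C57BL6 mice, 1500 each from control, EoE and ESCC.

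The control mice were untreated, 3 young (3-4 months) and 3 old (18-20 months), with 2 libraries per mouse, as in ESCC, and 1 per mouse in EoE. Eosinophilic esophagitis (EoE) was induced with MC903 on the ears and ovalbumin in 2 young (6-8 weeks) and 2 old (19-20 months) mice, and squamous cell carcinoma (ESCC) with 4NQO in drinking water for 16 weeks and 8 weeks without it in 3 mice of 8-10 months. Each animal was a replicate. The labels call all cells squamous cells, and the methods name no sort.

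The esophagus is lined by a stratified squamous epithelium in which cells divide in the basal layer, move outwards, switch from basal to differentiation keratins and are finally shed. The outermost cells assemble a cornified envelope, a shell of small proline-rich proteins, loricrin and plakins crosslinked beneath the membrane by transglutaminases, and they secrete lipids, antimicrobial peptides and protease inhibitors. Sprr3 and Cnfn are envelope proteins of this layer, Crct1 lies in the same gene cluster as the small proline-rich proteins, and Slpi inhibits leukocyte serine proteases.

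Members came from 5 of the 6 control mice. Mouse old 3 had 0 late cells among 14 superficial cells, old 4 had 34 of 137, old 5 had 20 of 88, young 1 had 56 of 127, young 2 had 8 of 44 and young 6 had 27 of 94. The late share of superficial cells was thus 0, 24.8, 22.7, 44.1, 18.2 and 28.7% in that order, with exact 95% (Clopper-Pearson) intervals of 17.8 to 32.9% in old 4 and 35.3 to 53.2% in young 1. For old 3 the interval reached 23.2%, and 3 cells of 14 would be 21.4%. Intervals and floors cover counting error only.

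Both libraries of a mouse shared barcodes, 122 in the controls. In all 122 the namesake in the other library was the best match by expression, and 8 of the 145 members were second records of a barcode, leaving 137 barcodes. Libraries of different mice shared at most 4 barcodes. With 1 record per barcode, an alternative chosen after seeing the data, 477 genes were called in the main comparison described below, against 483. Both libraries were summed per mouse throughout.

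**Figure D1:**
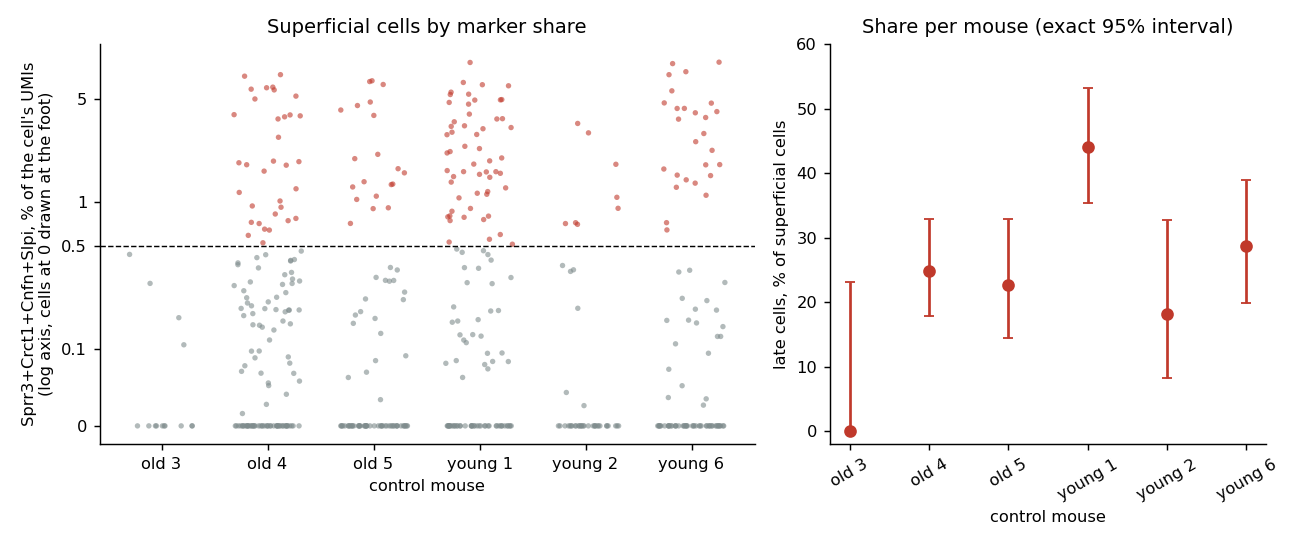
Left, each point is a superficial cell of a control mouse, with the summed share of Sprr3, Crct1, Cnfn and Slpi in its UMIs on a log axis (cells at 0 at the foot), late cells red, other cells grey and the 0.5% limit dashed. Right, points are the late share of superficial cells per mouse with its exact 95% interval, from 0 of 14 cells in old 3 to 44.1% in young 1.

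The limit cut a range and not a gap. Cells with no UMI on the 4 markers made up 225 of the 359 other superficial cells. Just outside the limit, 10 cells lay between 0.4 and 0.5%, and just inside it 6 cells lay between 0.5 and 0.6%. Among the members the marker share ran from 0.514 to 8.85% with a median of 1.84%, on 3 to 365 marker UMIs (median 27), and 7 members had fewer than 5 marker UMIs. Late cells had a median of 1263 UMIs and the other superficial cells 1191.

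The markers chose the cells, so their values are a description. Per 10000 UMIs in old 4, old 5, young 1 and young 6, Sprr3 stood at 115, 112, 110.0 and 145 in late cells and at 2.58, 1.34, 1.39 and 0.635 in the others. Slpi stood at 47.2, 33.6, 30.2 and 53.01 in late cells and 0.703, 0, 0.214 and 0 in the others. In young 2, whose 8 late cells were too few for the paired comparison, Sprr3 was at 62.8 and Slpi at 0. The markers were not equally spread over the members: Cnfn was seen in 98.6% of late cells, Sprr3 in 94.5%, Crct1 in 82.8% and Slpi in 59.3%. All 4 were seen in 79 members, 3 in 42, 2 in 20 and 1 in 4. Among the cells outside the superficial group, at a median of 936 UMIs, the same genes were seen in 8.33, 7.13, 2.31 and 3.41% of cells. With a gate made from the other 3 markers, each marker was still higher in the late cells, by a log2 fold change of 5.73 for Sprr3, 5.30 for Crct1, 4.31 for Cnfn and 6.89 for Slpi.

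Of the keratin genes in the rule, Krt4 stood at 859, 768, 863 and 645 UMIs per 10000 in late cells and 562, 471, 519.7 and 485 in the others, and Krtdap at 232, 263, 247 and 197 and 128, 104, 110.0 and 100.1. Krt5, the basal type II keratin, stood at 5.24, 1.67, 2.8 and 2.09 and 6.8, 5.59, 7.27 and 4.87. The other basal genes did not follow Krt5 in every mouse. Krt14 stood at 2.06, 0.834, 3.06 and 1.61 and 1.09, 0.895, 1.07 and 0.106, higher in late cells of old 4, young 1 and young 6. It had 48 UMIs in late and 36 in other superficial cells. Krt15 stood at 10.3, 3.06, 8.93 and 7.87 and 12.2, 12.6, 8.66 and 11.9, higher in late cells of young 1. Krt4, Krt13 and Krtdap were thus higher in late cells of each of these 4 mice, again as a description of what the rule used.

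Markers of other cell types were near 0 in the members. Late cells held 5 UMIs on 16 immune markers, with Ptprc, Lyz2, Cd3e and Csf1r at 0, and 9 UMIs on 9 fibroblast markers, all of them Dcn. None of 7 endothelial markers had a UMI, and 4 erythrocyte markers had 2. The 9 muscle markers had 49 UMIs, on Tpm2 and Mylpf, with Acta1, Myh11, Des and Ckm at 0. The muscle list, the highest of the 5, took 0.016 to 0.0281% of late UMIs and 0.00379 to 0.0195% of other UMIs per mouse. The main comparison described below was refitted without cells holding at least 3 UMIs on immune, fibroblast, endothelial or muscle markers. It then called 487 of 1436 genes, against 483. Of the main calls, 474 could be tested there. All 474 kept their direction and 449 were called. The part of these transcripts in the cells that stayed was not tested. Scrublet, a doublet caller, marked 35 control cells (2.33%), of which 0 were late cells and 4 were other superficial cells. Of the 996 control cells outside the superficial group, 19 also met the 0.5% marker limit.

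The main comparison asked which other genes differed between late and other superficial cells of the same animal. UMIs were summed per mouse and class for the 4 mice with at least 10 late cells (old 4, old 5, young 1 and young 6) and tested with edgeR's quasi-likelihood test with the mouse as a block, without the 10 rule genes. All adjusted p are Benjamini-Hochberg values over all genes tested. Late cells differed from the others in 483 of 1475 genes (32.7%) at an adjusted p under 0.05, of which 264 were higher (17.9%) and 219 lower (14.8%). DESeq2 called 236. The median log2 fold change over all genes tested was 0.01. In 415 genes (28.1%) the ranges of the 4 mice did not overlap. The genes share their cells with the markers that set the limit, so the test measures how steady a difference was over mice, not whether late cells exist as a class of their own. A gene could pass the filter on low counts through 1 class alone. Counts and medians of the gene lists below are therefore descriptions and no support for a list. Their background is the 17.9% higher and 14.8% lower over all tested genes.

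Defb4 (ENSMUSG00000059230, chr8:19198706-19201545 on GRCm38), a beta-defensin that kills microbes at epithelial surfaces, had the largest fold of the genes that passed the filter on low counts. Per 10000 UMIs in old 4, old 5, young 1 and young 6 it stood at 16.1, 10.8, 12.3 and 17.5 in late cells and at 0.234, 0, 0 and 0 in the others. No late value came near the other cells' values (log2 fold change 7.46, SE 0.34, adjusted p = 3.86e-44 by edgeR). Folds against a few UMIs moved with single mice. Without old 4 the log2 fold change was 9.76 for Defb4, 5.91 for Ada, 6.33 for Lor, 6.56 for Il33, 5.62 for Lypd5 and -4.15 for Plek2. For Sprr1b it was 7.19 without young 1. Over all control mice Defb4 had 329 UMIs in late and 3 in other superficial cells, a pooled ratio of 226 with a 95% counting interval of 76.5 to 1100. Defb4 passed the filter on low counts through the late cells, so its separation is a description. It was seen in 47.6% of late cells, 0.836% of other superficial cells and 1.81% of the remaining control cells.

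Dsc1, the desmocollin of outer epidermal layers, stood at 6.36, 5.28, 4.26 and 4.98 in late cells and 0.0781, 0, 0 and 0.106 in the others (log2 fold change 6.48, SE 0.47, adjusted p = 1.57e-25 by edgeR). Il33 (ENSMUSG00000024810, chr19:29925114-29960718 on GRCm38), a nuclear alarmin released from damaged epithelium, stood at 4.31, 4.73, 4.66 and 4.34 and 0.156, 0, 0 and 0.106 (log2 fold change 5.78, SE 0.47, adjusted p = 2.23e-22 by edgeR), a pooled ratio of 69.9 with a counting interval of 23.3 to 345. For both genes the late values of the 4 mice lay close together and far above the others. Dsc1 had 119 UMIs in late and 5 in other superficial cells, and Il33 102 and 3. Both passed the filter on low counts through the late cells, so this separation is a description. In the 8 late cells of young 2, Dsc1 was at 3.92 and Il33 at 0.

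**Figure D2:**
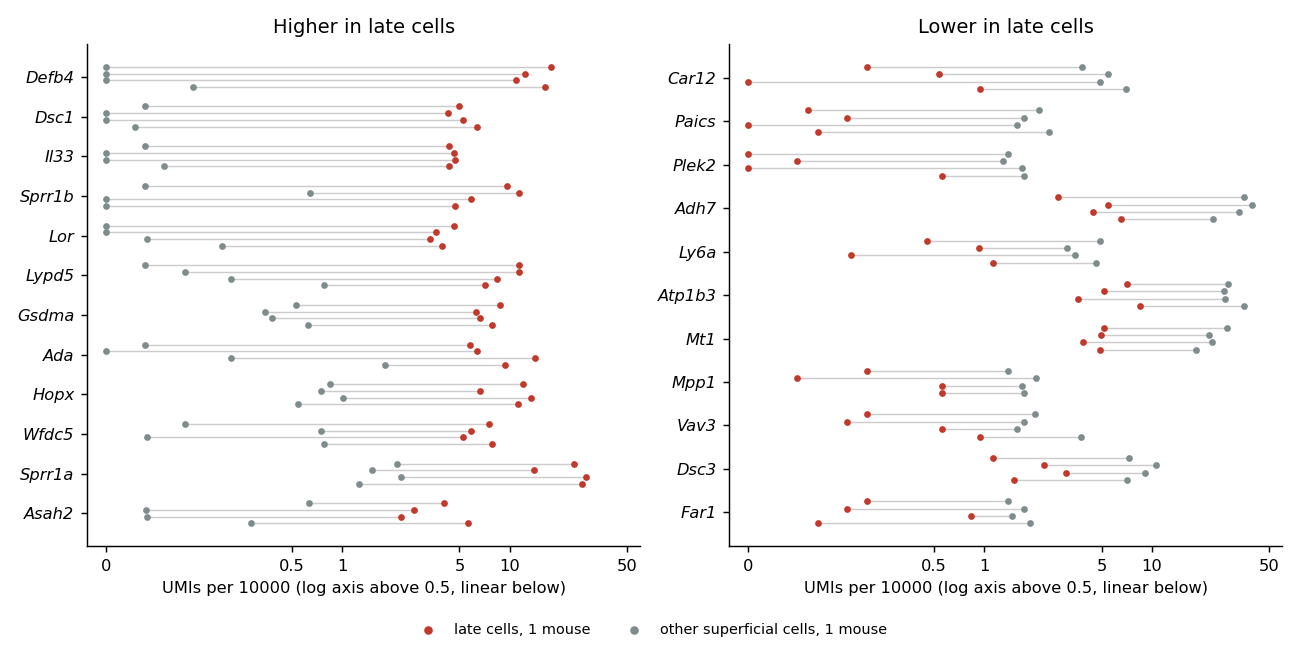
UMIs per 10000 of the 12 genes with the largest positive log2 fold change and of 11 of the 12 with the largest negative one, in late (red) and other superficial (grey) cells of 4 control mice, each line a mouse, on an axis that is logarithmic above 0.5 and linear below. Late and other values do not overlap in any of the 23 genes shown, which were chosen for large folds of the same sign in each mouse. Over all tested genes the ranges did not overlap in 415 of 1475 (28.1%). Genes could pass the filter on low counts through 1 class alone, so the separation is a description.

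Cornified envelope genes were mostly too rare in superficial cells to test. Of 38 listed genes 8 could be tested, of which 6 were higher and 0 lower, with a median log2 fold change of 1.92. Sprr1b (193 UMIs in late and 7 in other cells) and Lor (90 and 6) passed the filter on low counts through the late cells, so this count and median are no support for the list. Sprr1a, a crosslinked small proline-rich protein, stood at 26.96, 28.6, 13.9 and 24.1 in late cells and 1.25, 2.24, 1.5 and 2.12 in the others (log2 fold change 3.86, SE 0.19, adjusted p = 4.16e-42 by edgeR). Its neighbour Sprr1b stood at 4.68, 5.84, 11.3 and 9.64 and 0, 0, 0.642 and 0.106 (log2 fold change 5.48, SE 0.35), and Lor, which encodes the glycine-rich envelope protein loricrin, at 3.93, 3.34, 3.6 and 4.66 and 0.313, 0.112, 0 and 0 (log2 fold change 4.97, SE 0.45). Late cells of every mouse lay above the other cells of every mouse in all 3. Scel, or sciellin, was higher by a log2 fold change of 1.95, and the plakins Ppl and Evpl, which anchor the envelope to keratin filaments, by 1.89 and 1.33. Sprr2a3 (log2 fold change -0.32, SE 0.37) did not pass, and its reads may be split with genes that share its sequence, among them Sprr2a1 and Sprr2a2. The transglutaminases Tgm3 and Tgm1, the crosslinking enzymes, were both higher, by 0.94 and 0.91.

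Several envelope genes were seen almost solely in late cells but in too few mice or cells to enter the test. They are described from counts, chosen after their values were seen, as genes with at least 15 UMIs in late and at most 1 in other superficial cells, except Lce3b, which had 5 and is counted with its family. Rptn, or repetin, had 75 UMIs in late cells (14, 2, 25, 0 and 34 in old 4, old 5, young 1, young 2 and young 6) and 0 in the others, at least 51.4-fold higher against a floor of 3 UMIs over the other cells. Hrnr, or hornerin, had 29 against 1. The late cornified envelope genes Lce3a, Lce3b, Lce3c, Lce3e and Lce3f had 187 UMIs in 17 late cells and 0 in the 359 others, which allows up to 0.836% of cells with such a UMI and does not limit the share of cells that express them. Of the 187 UMIs 145 came from young 6, and 42 remained without that mouse. The 17 cells came from old 4 (8), old 5 (2), young 1 (3) and young 6 (4), with 67 of the UMIs in a single cell. Their median marker share was 5.94%, against 1.65% in the late cells without Lce3 UMIs, at 1882 and 1199.5 median UMIs. By contrast Ivl, the envelope precursor involucrin, had 2 UMIs and Flg, or filaggrin, 1 UMI in all late cells.

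Many of these genes lie side by side in the epidermal differentiation complex. On chromosome 3 of GRCm38, between S100a1 and S100a10 (chr3:90511034-93564643), the tables list 52 genes, of which 17 had no UMI in superficial cells. Together the complex took 3.22% of UMIs in late and 1.00% in other superficial cells with the rule genes Sprr3 and Crct1, and 1.68 and 0.983% without them. Of its 10 tested genes 6 were higher and 1 lower, with a median log2 fold change of 0.64, against 17.9 and 14.8% of all tested genes. Lor and Sprr1b passed the filter on low counts through the late cells, so this count and median are a description. The lower gene was S100a6, a calcium-binding protein (log2 fold change -1.94, SE 0.22, adjusted p = 3.95e-14 by edgeR), while its neighbours S100a14 and S100a16 were higher by 0.53 and 0.75.

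The promoters of 4 envelope genes of this complex are shown because Sprr1a, Sprr1b and Lor moved together and Sprr3 is a marker of the rule. Each sequence runs from 250 bases before to 50 bases after the transcript start in RefSeq on GRCm38.p6, 5′ to 3′ on the minus strand, where all 4 genes lie. The positions are chr3:92485832-92486131 for Sprr1a, chr3:92438730-92439029 for Sprr1b, chr3:92083093-92083392 for Lor and chr3:92458671-92458970 for Sprr3. Capitals mark matches to TGANTCA, the letters that AP-1 factors such as Fos and Jun bind, searched on both strands.
Sprr1a: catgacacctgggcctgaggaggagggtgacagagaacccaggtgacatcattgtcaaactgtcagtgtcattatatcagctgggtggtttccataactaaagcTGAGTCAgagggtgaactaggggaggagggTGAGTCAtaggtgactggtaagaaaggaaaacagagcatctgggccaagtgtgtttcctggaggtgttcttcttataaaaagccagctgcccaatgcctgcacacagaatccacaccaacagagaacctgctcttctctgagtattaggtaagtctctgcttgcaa
Sprr1b: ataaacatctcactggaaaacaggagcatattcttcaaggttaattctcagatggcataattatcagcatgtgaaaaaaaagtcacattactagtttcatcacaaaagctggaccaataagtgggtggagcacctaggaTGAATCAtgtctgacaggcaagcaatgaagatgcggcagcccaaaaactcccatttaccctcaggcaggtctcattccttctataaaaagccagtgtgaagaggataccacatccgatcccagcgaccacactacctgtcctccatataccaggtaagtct
Lor: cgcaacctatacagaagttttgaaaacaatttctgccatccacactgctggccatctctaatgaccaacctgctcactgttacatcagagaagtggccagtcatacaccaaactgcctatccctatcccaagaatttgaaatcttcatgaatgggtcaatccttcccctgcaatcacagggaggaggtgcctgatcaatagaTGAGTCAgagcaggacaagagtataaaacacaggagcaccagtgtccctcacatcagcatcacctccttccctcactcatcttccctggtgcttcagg
Sprr3: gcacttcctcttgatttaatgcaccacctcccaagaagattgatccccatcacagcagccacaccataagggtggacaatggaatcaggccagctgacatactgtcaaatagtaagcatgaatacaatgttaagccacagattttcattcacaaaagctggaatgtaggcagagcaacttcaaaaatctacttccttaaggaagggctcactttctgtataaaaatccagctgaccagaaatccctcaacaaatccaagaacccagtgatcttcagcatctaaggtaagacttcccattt

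Sprr1a held 2 such matches, Sprr1b and Lor 1 each, and Sprr3 none in this window. Of the tested genes 1165 matched a promoter. TGANTCA stood in a promoter of 8.97% of all genes and 8.67% of tested genes, and in 7.81% of all promoters. A match stood in 28 of 200 genes higher in late cells (14%), in 17 of 165 lower genes (10.3%) and in 56 of 800 genes not called (7%). The letters GGGTGTG, bound by Klf factors, stood in 14, 11.5 and 10.8% of the same groups in 9.05% of all genes and in 11.4% of tested genes. AACCGGTT, bound by Grhl factors, stood in 0.146% of all promoters and in 1 higher and 1 lower gene. These shares describe letters in a window and were not tested.

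Desmosome genes moved in both directions. Of 11 tested genes 6 were higher and 2 lower (median log2 fold change 0.50), against 17.9 and 14.8% of all tested genes. Dsc1 passed the filter on low counts through the late cells, so these counts are a description. Besides Dsc1, the higher genes included Dsg1a (log2 fold change 2.74, SE 0.34) and Dsg1b (1.63), desmogleins of the outer layers, and Dsp, the plakin that ties desmosomes to keratin (0.53). The lower genes were Dsc3 and Dsg3, the desmosomal cadherins of the lower layers. Dsc3 stood at 1.5, 3.06, 2.26 and 1.12 in late cells and 7.11, 9.06, 10.6 and 7.3 in the others (log2 fold change -2.02, SE 0.23, adjusted p = 1.34e-13 by edgeR), without overlap. Dsg3 was lower by a log2 fold change of -0.69 with overlapping ranges, and its call was lost without old 5 or young 6, by DESeq2 and without the block. The genes that did not pass were Pkp1, Dsc2 and Pkp3, at 0.30, 0.15 and 0.68. Gap junction genes also moved in both directions, with Gjb2 (connexin 26) at 1.98 and Gja1 (connexin 43) at -0.53, both past the threshold. Cldn17, a claudin of tight junctions, had 44 UMIs in late and 0 in other superficial cells.

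Most tested protease inhibitors and proteases were higher in late cells. Outside Slpi, 7 of 12 tested inhibitors were higher and 1 lower (median 0.98), and 7 of 11 tested proteases were higher and 2 lower (median 1.13). Over all tested genes the shares were 17.9% higher and 14.8% lower. Wfdc5, a small secreted inhibitor related to Slpi, stood at 7.86, 5.28, 5.86 and 7.55 in late cells and 0.781, 0.112, 0.748 and 0.212 in the others (log2 fold change 3.88, SE 0.30). It passed the filter on low counts through the late cells, so the inhibitor count and median are no support for the list. The intracellular serpins Serpinb3a and Serpinb12 were higher by 3.58 and 3.21, Serpinb3c by 4.00 and Spink5, an inhibitor of kallikreins, by 2.42. Serpinb3a and Serpinb3c share sequence, so their reads may be split, and Serpinb3c was uneven, at 18.2, 0, 4.93 and 2.09 UMIs per 10000 in late cells of old 4, old 5, young 1 and young 6. Among proteases the kallikrein family genes Klk13 and Klk10 were higher by 3.26 and 3.18, the transmembrane serine protease Tmprss11d by 3.54 and the filaggrin-processing protease Asprv1 by 2.36. Klk10 averaged 41.1 ± 9.22 against 4.95 ± 1.1 UMIs per 10000 (SD, n = 4 mice). The lower genes were the inhibitor-list gene Anxa1 (-0.56), the calpain Capn2 (-1.30) and the cathepsin Ctsc (-0.88). Ctsb and Ctsd, lysosomal cathepsins, did not pass, at 0.07 and 0.41.

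**Figure D3:**
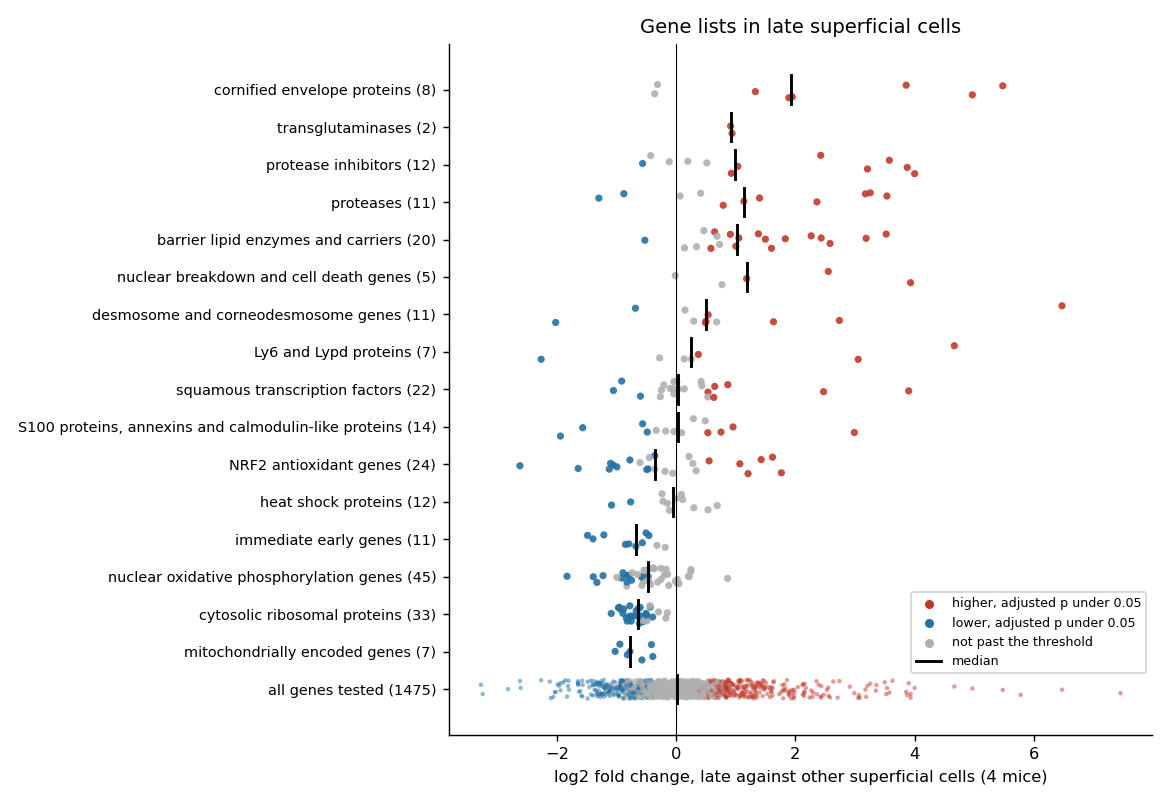
Log2 fold change of every tested gene of 16 lists and of all 1475 tested genes, late against other superficial cells of 4 control mice, with the number of genes tested in brackets, calls in color and the median as a bar. Medians run from 1.92 for cornified envelope proteins to -0.78 for mitochondrially encoded genes, against 0.01 for all genes. Genes could pass the filter on low counts through 1 class alone, so the medians are a description.

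Barrier lipid genes were higher in 14 of 20 tested, with 1 lower and a median of 1.03, against 17.9 and 14.8% of all tested genes. Genes could pass the filter on low counts through 1 class alone, so this count and median are a description. The examples with the largest folds were Smpd1, a sphingomyelinase that releases ceramide (log2 fold change 3.52, SE 0.48), Alox12b, a lipoxygenase of the skin barrier (log2 fold change 3.19, SE 0.24), Ugcg, which makes glucosylceramide (log2 fold change 2.58, SE 0.35), and Elovl4, which elongates very long fatty acids (log2 fold change 2.43, SE 0.17). Alox12b was seen in 60.7% of late cells, 10.3% of other superficial cells and 1.71% of the remaining control cells. Asah2, a neutral ceramidase outside this list, stood at 5.62, 2.22, 2.66 and 4.02 in late cells and 0.391, 0.112, 0.107 and 0.635 in the others (log2 fold change 3.63, SE 0.38). The lower gene was Psap, a precursor of lysosomal saposins (-0.53). Acsl1 and Cyp4f39 did not pass, at 0.14 and 0.46.

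Genes of nuclear breakdown and cell death were higher in 3 of 5 tested (median 1.18), against 17.9% of all tested genes. Gsdma, a pore-forming gasdermin of surface epithelium, stood at 7.86, 6.67, 6.26 and 8.67 in late cells and 0.625, 0.447, 0.428 and 0.529 in the others (log2 fold change 3.93, SE 0.28, adjusted p = 1.71e-26 by edgeR). It passed the filter on low counts through the late cells, so this count and median are no support for the list. Trex2, a keratinocyte DNA exonuclease, was higher by 2.55 and the ribonuclease gene Rnase1 by 1.18. Ada, the adenosine-degrading deaminase, stood at 9.36, 14.2, 6.39 and 5.78 and 1.8, 0.336, 0 and 0.106 (log2 fold change 3.93, SE 0.28), with the 4 late values above the 4 others. Ada, too, passed the filter through the late cells. Of 5 tested autophagy and lysosome genes, Gabarap (0.56) and Atp6v1d (0.50) were higher. The call for Gabarap was lost without old 5 or young 6, and that for Atp6v1d without old 4, young 1 or young 6.

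Surface proteins of the Ly6 family moved in both directions. Lypd5 stood at 7.11, 8.34, 11.3 and 11.4 in late cells and 0.781, 0.336, 0.214 and 0.106 in the others (log2 fold change 4.67, SE 0.29), and was seen in 60% of late cells, 3.9% of other superficial cells and 0.803% of the remaining control cells. Ly6g6c was higher by 3.05, seen in 96.6% of late and 31.8% of other superficial cells. Ly6a, also known as Sca-1 and a marker of progenitor cells in other tissues, stood at 1.12, 0.278, 0.932 and 0.482 and 4.61, 3.47, 3.1 and 4.87 (log2 fold change -2.27, SE 0.33). In all, 3 of 7 tested members were higher and 1 lower (median 0.25), against 17.9 and 14.8% of all tested genes. Lypd5 passed the filter on low counts through the late cells and Ly6a through the other cells, so this count is a description.

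Of 22 squamous transcription factors tested, 6 were higher and 3 lower, with a median of 0.02. Over all tested genes 17.9% were higher and 14.8% lower. Hopx, an atypical homeodomain protein that does not bind DNA, had the largest change, at 11.2, 13.3, 6.66 and 11.9 in late cells and 0.547, 1.01, 0.748 and 0.847 in the others (log2 fold change 3.90, SE 0.24). It passed the filter on low counts through the late cells, so this change is a description. Rora was higher by 2.47 and Klf4, a driver of terminal squamous differentiation, by 0.87. Klf5 and Trp63, which act in basal and proliferating keratinocytes, were lower by log2 fold changes of -0.92 and -1.05, and Nfe2l2, the NRF2 gene, by -0.60. Klf6 and Grhl1 did not pass, at -0.10 and 0.43. Of 11 tested immediate early genes, which respond to stress and growth signals within minutes, 9 were lower and 0 higher (median -0.68). Fos averaged 25.6 ± 9.37 against 47.5 ± 4.52 UMIs per 10000 (SD, n = 4) with a log2 fold change of -0.80, and Nr4a1, Atf3 and Fosb stood at -1.49, -1.40 and -1.22.

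Antioxidant genes regulated by NRF2 did not move one way: 6 of 24 were higher, 10 lower and 8 not called (median -0.36). The shares over all tested genes were 17.9% higher and 14.8% lower. Aldh3a1, an aldehyde dehydrogenase of surface epithelia, averaged 23.1 ± 1.82 against 7.48 ± 2.23 (log2 fold change 1.76, SE 0.15), and Gpx1, a glutathione peroxidase, 21.5 ± 3.05 against 7.65 ± 1.64 (log2 fold change 1.62, SE 0.15). Adh7 (ENSMUSG00000055301, chr3:138217760-138233382 on GRCm38), the retinol-oxidizing alcohol dehydrogenase of the upper digestive tract, went the other way. It stood at 6.55, 4.45, 5.46 and 2.73 in late cells and 22.97, 32.99, 39.6 and 35.1 in the others (log2 fold change -2.62, SE 0.17, adjusted p = 5.39e-30 by edgeR), and was seen in 46.2% of late cells, 87.2% of other superficial cells and 74.4% of the remaining control cells. Sod1 and Gclc, which make superoxide dismutase and the limiting subunit for glutathione, were at -1.65 and -1.12. Sod1 may share reads with the copy Gm8566.

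Among the lower genes, Car12 (ENSMUSG00000032373, chr9:66713686-66766845 on GRCm38), a membrane carbonic anhydrase, stood at 0.936, 0, 0.533 and 0.321 in late cells and 7.03, 4.92, 5.45 and 3.81 in the others (log2 fold change -3.28, SE 0.34, adjusted p = 1.96e-15 by edgeR). Of the sodium potassium ATPase, the beta subunit gene Atp1b3 was lower, at 8.42, 3.61, 5.2 and 7.07 and 35.3, 27.4, 26.8 and 28.5 (log2 fold change -2.12, SE 0.16). Mt1, a metal-binding metallothionein, stood at 4.87, 3.89, 4.93 and 5.14 and 18.4, 22.8, 21.8 and 27.8 (log2 fold change -2.11, SE 0.17). In none of these did the late range reach the other range. Paics, of purine synthesis, was lower (log2 fold change -3.25, SE 0.55) with 4 UMIs in all late cells, as were Plek2, a membrane-bound actin regulator (-2.83), Far1, which makes fatty alcohols (-1.99), the membrane scaffold gene Mpp1 (-2.07) and Vav3, a guanine nucleotide exchange factor (-2.04). Car12 and Paics passed the filter on low counts through the other cells, so their folds are a description. Most of these lower genes were also present outside the superficial group: Car12 was seen in 40.1% of those cells, Paics in 37.5% and Ly6a in 42.5%.

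Many, not all, tested genes of translation and respiration were lower, against 14.8% of all tested genes. Of 33 tested cytosolic ribosomal protein genes 26 were lower and 0 higher (median -0.64), of 45 nuclear genes of oxidative phosphorylation 13 were lower and 0 higher (median -0.47), and all 7 tested mitochondrially encoded genes were lower (median -0.78). In the 5 mice with members, ribosomal genes took 3.93 ± 0.291% of late and 6.08 ± 0.365% of other UMIs outside the rule genes (SD, n = 5), lower in 5 of 5 mice. Of the 85 listed ribosomal genes 19 had under 10 UMIs in superficial control cells, so the share covers part of the list. Mitochondrially encoded genes took 4.55, 3.07, 2.94, 3.04 and 2.51% of late UMIs in old 4, old 5, young 1, young 2 and young 6 and 8.51, 4.8, 4.19, 5.11 and 4.17% of other UMIs, and nuclear oxidative phosphorylation genes 1.62 ± 0.286 against 2.09 ± 0.163%, each again lower in 5 of 5. A two-sided exact paired permutation test gave p = 0.0625 for each of the 3, the smallest that 5 mice allow, and an adjusted p of 0.125 over 6 values, so this design could not pass the threshold. Of 10 tested glycolysis and hypoxia genes 3 were higher and 0 lower, namely Higd1a (1.55), Egln3 (1.34) and Tpi1 (0.71). Of 12 heat shock genes 0 were higher and 2 lower, the mitochondrial chaperones Hspd1 (-0.77) and Hspe1 (-1.09).

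Remaining lists were mixed. Among S100, annexin and calmodulin-like genes 4 of 14 were higher, led by Calm4 (2.99), and 4 lower, with Anxa8 at -1.57. Outside the rule, Krt80 was higher by 2.56 and Krt6a lower (-0.99), while Krt1 and Krt23 did not pass, at -0.58 and 0.01. Of 15 tested suprabasal and early superficial genes 6 were higher, led by Sbsn, or suprabasin (1.80), and 3 lower, among them the metallothionein Mt4 (-0.55). Of 9 tested mucosal and glycan genes Tmem45a (3.07) and Clic3 (1.78) were higher and the water channel Aqp3 lower (-1.02). The 2 tested basal genes were Wnt4, which was higher (1.14), and Trp63. The 1 tested cell cycle gene, Tubb4b, did not pass (-0.31). Of the calls named for these and the earlier lists, those for Tgm1, Ctsc, Psap, Trp63, Gclc, Krt6a, Hspd1, Hspe1 and Aqp3 were lost when 1 of the mice was left out.

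Over all superficial control cells, members and others, the genes given next changed with the marker share. From cells with no marker UMI through bins of up to 0.5, 0.5 to 1, 1 to 2, 2 to 4 and at least 4%, with 225, 134, 32, 46, 30 and 37 cells, Defb4 stood at 0.0353, 0.1004, 0.265, 3.32, 11.1 and 33.5 UMIs per 10000. In the same order Dsc1 stood at 0.0707, 0.151, 1.06, 2.21, 6.16 and 9.2, and Serpinb12 at 2.93, 7.28, 18.8, 34.8, 41.7 and 65.3. On the falling side Adh7 stood at 38.1, 23.2, 11.4, 5.94, 2.98 and 2.03, and Atp1b3 at 32.2, 23.9, 13.5, 8.57, 5.76 and 1.22. Below the limit Defb4 rested on 1 and 2 UMIs and Dsc1 on 2 and 3, too few to show a step there. The values of Serpinb12 rose and those of Adh7 and Atp1b3 fell from bin to bin on both sides of it, with 15 Adh7 UMIs in each of the last 2 bins. Other named genes did not move one way. From 0.5% up, Asah2 stood at 2.91, 0.968, 3.78 and 6.49 and Vav3 at 1.06, 0.553, 0.994 and 0. Klf4 was flat up to 1% and higher from there, at 16.4, 15.9, 16.4, 23.8, 27.4 and 33.3, and Slpi, part of the share itself, was concentrated in the last bin, at 0, 0.552, 3.18, 5.67, 25.04 and 102. The cells of a bin come from 4 to 6 mice and share libraries, so the bins are a description with no test.

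**Figure D4:**
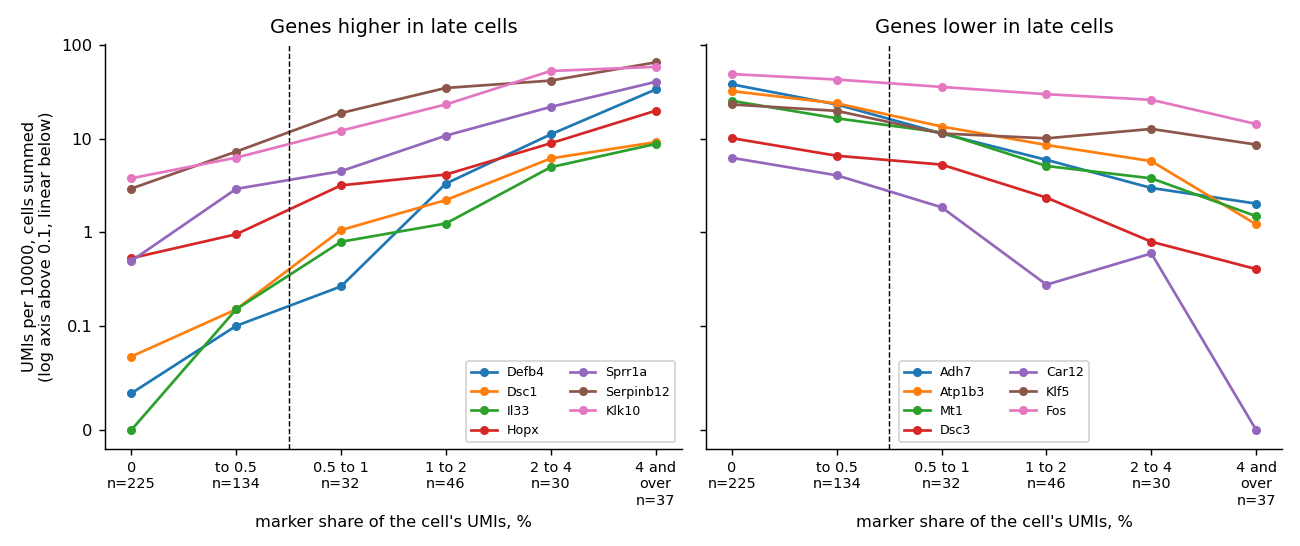
UMIs per 10000 in superficial control cells summed over mice by the share of Sprr3, Crct1, Cnfn and Slpi in the UMIs of a cell, with the number of cells in each bin and the 0.5% limit dashed, on an axis that is logarithmic above 0.1 and linear below. Defb4 goes from 0.0353 to 33.5 and Adh7 from 38.1 to 2.03.

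Age was the condition in which the control mice differed. The late share of superficial cells was 15.8 ± 13.8% in old and 30.3 ± 13.03% in young mice (SD, n = 3 each, p = 0.40 by a two-sided exact permutation test, where 0.10 is the smallest possible). Between the late cells of 2 old and 3 young mice, edgeR called 1 of 1039 genes (0.0962%, 48 at an unadjusted p under 0.05), and DESeq2 called 0. It was Serpinb3c, higher in old mice (log2 fold change 1.596, SE 0.35, adjusted p = 0.00508), at 18.2 and 0 per 10000 in old 4 and old 5 and at 4.93, 0 and 2.09 in young 1, young 2 and young 6. It was higher in 1 of the 2 old mice only, and without old 4, young 1 or young 6 no gene was called. Whether the difference between late and other cells varied with age was tested in the 4 mice of the main fit. edgeR called 0 of 1968 genes (0%, 90 at an unadjusted p under 0.05), and DESeq2 called 0. A count of 0 from 2 mice per age does not show that the ages were alike.

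The same rule found cells in the disease mice, whose cells are not members. In EoE it found 24, 21, 17 and 28 cells in EoE 10, EoE 11, EoE 12 and EoE 9, 27.3 ± 3.61% of superficial cells (SD, n = 4) against 23.1 ± 14.4% in the 6 controls (difference 4.23 percentage points, p = 0.60 by exact permutation, adjusted 0.60 over 3 comparisons). The EoE cells are shallow, with 194 to 319 median UMIs in other superficial cells, so that 1 or 2 marker UMIs can meet the limit. In ESCC it found 7, 1 and 0 cells in 8M, 17F and 17M, 9.17 ± 8.78% of superficial cells (n = 3, p = 0.167, adjusted 0.50), or 0.781% of all ESCC cells per mouse on average against 8.04% in controls (p = 0.0952, adjusted 0.286, exact permutation). None of these shares passed the threshold.

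Because the ESCC mice held under 10 late cells each, the main comparison was repeated in the 4 EoE mice instead, a choice made after seeing the data, with late cells required to hold at least 3 marker UMIs (66 cells against 237). Median UMIs were 446 to 1018 in these late cells and 194 to 319 in the others, and the part of this depth gap in the result was not tested. edgeR called 106 of 260 genes (40.8%), 48 higher (18.5%) and 58 lower (22.3%). Of 234 genes tested in both sets of mice, 120 were called in control and 92 in EoE mice. Called in both were 73, which is 60.8% of these control calls and 79.3% of these EoE calls. Of the 73 genes 72 had the same sign. The exception was Actb, beta-actin, at 0.53 in control and -0.36 in EoE mice. The same markers chose the late cells of both sets, and genes could pass the filter on low counts through 1 class. The agreement among genes called in both is therefore a description and no support.

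Defb4 stood at 22.6, 33.8, 5.42 and 12.1 per 10000 in all late cells by the rule of EoE 9, EoE 10, EoE 11 and EoE 12, and at 1.01, 1.31, 1.67 and 0.528 in the others (log2 fold change 4.34, SE 0.39, adjusted p = 6.40e-25 by edgeR). Every late value lay above every other value. These values rested on 48, 77, 4 and 10 UMIs in late cells and on 2, 3, 2 and 1 in the others. Of the 12 named genes higher in control late cells 3 could be tested in EoE, Defb4, Gsdma (log2 fold change 4.46, SE 0.61, adjusted p = 8.94e-12 by edgeR) and Ada (log2 fold change 4.81, SE 0.67, adjusted p = 3.71e-11 by edgeR), and all 3 were higher. In the same mouse order the other cells held 1, 1, 0 and 1 Gsdma UMIs, and 0, 0, 2 and 0 of Ada. These 3 genes passed the filter on low counts through the late cells, so their direction is no support. Of the 12 lower genes 4 could be tested, and Car12, Adh7, Atp1b3 and Mt1 were all lower, by log2 fold changes of -3.31, -1.96, -1.84 and -3.85. Car12 (3, 2, 0 and 1 UMIs in late cells) and Mt1 (1, 1, 0 and 2) passed through the other cells, with the same limit. Rptn had 67 UMIs in EoE late cells and 0 in EoE other cells, and Hrnr 26 and 0.

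**Figure D5:**
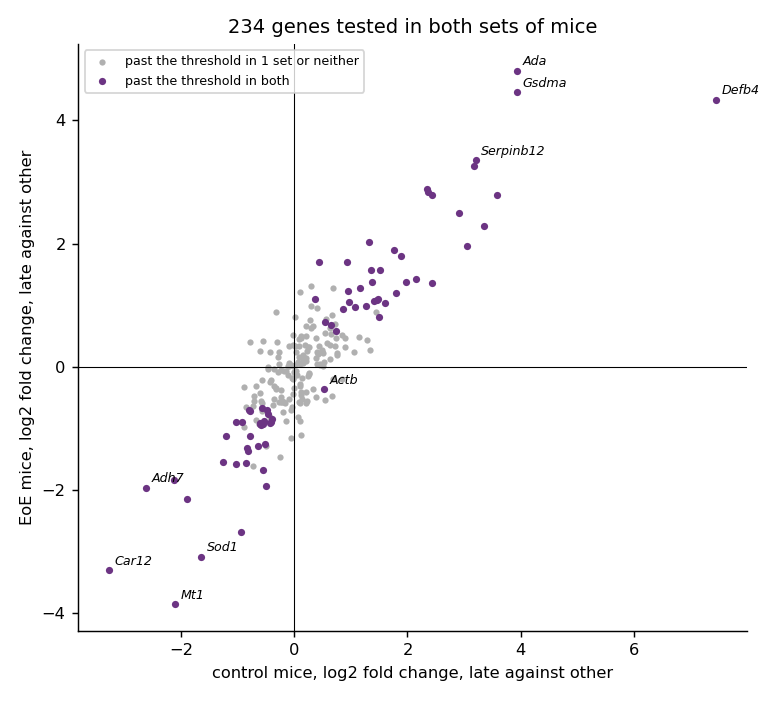
Each point is 1 of 234 genes tested in both sets of mice, with the log2 fold change of late against other superficial cells in 4 control mice on the x axis and in 4 EoE mice on the y axis. Purple points, past the threshold in both, have the same sign on both axes in 72 of 73 genes, Actb being the exception. The same markers chose the late cells of both sets, so this agreement is a description.

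Late cells of ESCC and control mice were set side by side with 2 ESCC sums, one of 7 cells and one of 1 cell, so the result is close to a comparison with mouse 8M. edgeR called 136 of 789 genes (17.2%), 101 higher in ESCC (12.8%) and 35 lower (4.44%), and 42 without 8M. Of the 101 higher genes 52 were ribosomal protein genes. Genes used by every cell stood far lower in the control tables as a whole, with Gapdh at 0.0286 UMIs per 10000 in all control cells and 16.9 in ESCC cells, and Rps6 at 0.0514 and 42.6. Such a difference between the tables and one between late cells cannot be told apart here. Asprv1 was at 31.1, 25.8, 25.98, 13.1 and 28.3 in the late cells of old 4, old 5, young 1, young 2 and young 6 and at 0.305 in 8M (1 UMI), and Krt80 at 6.18, 6.95, 6.13, 5.23 and 6.1 and at 0.305 (1 UMI). Defb4 was at 3.66 in the 7 late cells of 8M and Sprr1a at 12.2, with no replicate beyond that mouse.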

How the data were processed

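Esophageal epithelium was peeled from the muscle and single cells were barcoded by inDrop, with 2 libraries per control or ESCC mouse and 1 per EoE mouse. The deposited tables hold whole-number UMI counts per gene and cell, which the authors made with UMI-tools 1.0.0, STAR 2.7.3 and featureCounts on GRCm38, filtered and cut to 1500 cells per condition before deposit. All 17541 listed genes were read. Total UMIs per mouse ran from 112412 to 427752 in control, 61571 to 85774 in EoE and 1293418 to 2118140 in ESCC, so rare transcripts were most often missed in EoE. The members and gene lists were chosen with earlier results of these data known.

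Counts of both libraries were summed per mouse and cell class. Late and other cells were compared in mice with at least 10 cells in both classes, and late cells between ages or conditions in every mouse with any, with edgeR 4.0.16 in R 4.3.3 (TMM scaling, filterByExpr, quasi-likelihood test, mouse as a block, Benjamini-Hochberg adjustment, threshold 0.05), with DESeq2 1.42.0 as an alternative. The mouse pairs the sums because both classes come from the same animal. The 10 rule genes stayed in library sizes and got no test. Values per mouse were compared by exact permutation (scipy 1.17.1). Levels are UMIs per 10000 UMIs of the class. Named genes were the 12 with the largest positive and the 12 with the largest negative log2 fold change among calls whose mean log2 CPM reached 6 and whose sign was shared by each mouse, and from each list up to 4 calls by size and the 2 most abundant genes that did not pass. Other genes named beyond this rule, such as Pkp3, further list members, the genes named from the ESCC comparison and those seen almost solely in late cells, were chosen after their values were seen. One of the 12 lower genes is not reported here. Doublet calls by Scrublet in scanpy 1.11.5 were kept in and left out in an alternative. Mitochondrially encoded genes were found by NCBI-style symbols such as ND1 and CYTB. Genes were called copies where at least 10% of the 31-base words in their last 300 bases were shared. On simulated counts for the main comparison (1484 genes, 200 changed), edgeR recovered 67.5% at a log2 fold change of 1 with 4 false calls and 93.5% at 2 with 6, and called 0 genes with none changed. These counts were drawn gene by gene as sums per mouse and class, without cells or a marker limit. They therefore do not cover differences that come with choosing cells by their markers.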

Additional observations from a re-analysis of the deposited data

Results flagged for a closer look

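Of 70 groups of mice examined, 6 had a highest value that stood apart from the rest of its group, and chance sets apart about 1 in 20 groups. In other superficial cells of the control mice, Defb4 was at 0.234 UMIs per 10000 in 1 mouse and at 0 in the remaining mice of the fit, and Sprr1b was at 0.642 in 1 mouse with the next at 0.106. In late cells Sprr3 reached 145 in young 6, with the next at 115. Mitochondrially encoded genes took 4.55% of late UMIs in old 4, where the next mouse had 3.07%, and 8.51% of other UMIs in the same mouse, where the next had 5.11%. Nuclear oxidative phosphorylation genes took 2.12% of late UMIs in young 2, which had 8 late cells, with the next at 1.602%.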

How the results depend on the processing

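The main comparison called 483 genes. It called 236 with DESeq2, 154 with cells thinned to 500 UMIs, 233 in library 1 alone and 225 in library 2 alone, where fewer genes or UMIs were tested except with DESeq2, and 409 to 432 when a mouse was left out. Without the mouse as a replicate block it called 440 (248 higher, 192 lower), and in EoE mice 81 against 106. No gene called in the main comparison was called in the opposite direction under any of these settings. Where the 24 named genes could be tested under an alternative, 361 results kept the call and 1, Far1 with DESeq2, lost it, and not every gene could be tested under each. The difference between ages had 0 calls, and 0 to 1 when a mouse was left out. The 1 call between old and young late cells became 0 with DESeq2, without the filter on low counts, with thinned cells, at a marker share of 0.25% or of 1%, and 0 to 1 with a mouse left out. ESCC against control late cells gave 32 calls with thinned cells and 42 to 163 with a mouse left out, the lowest without 8M. The EoE comparison gave 49 with DESeq2 and 58 to 120 with a mouse left out, the lowest without EoE 10. The causes were not tested.

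None of the late shares passed the threshold, and some turned direction: ESCC minus control was 7.51 percentage points at a marker share of 0.25%, and EoE minus control was -0.236 at 1%, -1.59 as a share of all cells and -0.39 to 8.43 with a mouse left out, the lowest without old 3. With cells thinned to 500 UMIs the EoE share was 59.1% against 22.8% in controls (p = 0.0286 by exact permutation, adjusted 0.0857), on the 30, 7, 15 and 22 EoE cells deep enough to keep in EoE 10, EoE 11, EoE 12 and EoE 9. Late minus other median UMIs per cell, -111 in the report's setting, was 188 at 0.25%, 22.7 at 1% and 17.4 with rule genes kept, and median genes 26.5 and 19.1 at the same limits. The share on cell cycle genes, lower by 0.00217 percentage points, was higher by 0.00889 with thinned cells, 0.00658 at 0.25%, 0.00227 without old 5 and 0.00391 without young 6, on a range of -0.0113 to 0.00391 with a mouse left out. The comparison of late and other cells within ESCC mice could not be fitted, with 7, 1 and 0 late cells, and its alternatives were not run, nor was the EoE comparison with thinned cells. Depth limits the EoE cells most.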
